A study of Mus musculus with 9 samples.

Results

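The 50 genes described here encode the machinery of mitosis, namely CDK1 and its cyclins, the mitotic kinases, the spindle checkpoint, the centromere and kinetochore, the motors and bundlers of the spindle, the condensins and the transcription factors that act on such genes. They were taken by gene symbol from a table of 53465 genes, and where a symbol stood for several entries (Ccnb1, Ccnb2 and Kif4) the entry with the most reads was kept. RNA was sequenced from 9 cultures of bone marrow-derived macrophages (BMDMs) of male wild-type mice (C57B6 in the labels, C57bl6/J in the study's methods), grown with CSF1 at 50 ng/ml. The BMDMs were left untreated (UNX, n = 3), or received medium conditioned by pulmonary artery adventitial fibroblasts taken from age-matched control calves (CO-CM, n = 3) or from neonatal calves made pulmonary hypertensive by hypoxia (PH-CM, n = 3). The comparisons ask how each medium changes the RNA of macrophages, and how the media differ from each other. Each medium was a pool of 5 fibroblast populations, so the replicates repeat the macrophage culture and not the calves, and the p-values measure the spread between these repeats. Treatment time is 16 h in one label and 24 h in another, and the study's methods give yet another time. Conditioned media received fresh serum before use, and the sources used here do not say whether they received CSF1, so fibroblast products and a loss of growth medium cannot be told apart where a medium is compared with UNX.

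Cells that enter mitosis condense their chromosomes, build a spindle and attach each chromosome to it through the kinetochore, a protein plate on the centromere. A checkpoint holds back the anaphase-promoting complex (APC/C) until all chromosomes are attached, and this ubiquitin ligase then destroys securin and cyclin B so that the sister chromatids part. Most of these genes are transcribed late in the cell cycle and are nearly silent in resting cells, and macrophages grown from bone marrow divide in response to CSF1. In bulk RNA, fewer dividing cells and less of these RNAs per cell cannot be told apart.

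Levels are given as CPM, counted reads scaled to a common library size after adjusting each library by its TMM factor, and as RPKM, which also divides by gene length, where genes are compared with each other. The libraries held between 62017933 and 84314201 counted reads, and all 50 members passed the filter of a CPM above 1 in at least 3 libraries, as did 11950 genes in all. A gene was called at a fold change of at least 1.2 and a Benjamini-Hochberg adjusted p of at most 0.05 over these genes, in edgeR's quasi-likelihood test, and fold changes are on the log2 scale with their SE. Of the macrophage markers 8 of 8 passed the filter, with summed levels of 11818 to 12613 CPM in UNX, 19014 to 19970 in CO-CM and 21462 to 23275 in PH-CM. The sums do not stand for each marker. Against UNX, 5 were called higher and 1 lower in CO-CM (28.0% and 28.9% of all genes tested), the lowest at -0.82. In PH-CM 7 were called higher and 0 lower (31.3% and 31.7% of all genes). Fibroblast markers (6 of 8 passed) summed to 197 to 249 CPM in UNX, 267 to 318 in CO-CM and 249 to 335 in PH-CM, with Lum and Thy1 below the filter. Of the 6, 2 were called higher and 0 lower in CO-CM than in UNX, and 4 and 0 in PH-CM, beside the same shares of all genes. Neutrophil, lymphocyte, erythroid and dendritic cell markers summed to at most 5.05 CPM in any library, and Ly6g, Nkg7 and Hbb-bs had no read in any. Of the haematopoietic progenitor markers, Kit stood at 1.54, 3.02 and 3.31 CPM in UNX, 1.73, 1.80 and 2.33 in CO-CM and 0.298, 0.258 and 0.317 in PH-CM. It was lower in PH-CM than in UNX (-3.17 ± 0.32, adjusted p = 6.97e-06) and than in CO-CM (-2.74 ± 0.33, adjusted p = 1.13e-04), and was not called in CO-CM against UNX (-0.43 ± 0.26, adjusted p = 0.155). Meis1 stood at 4.17, 3.71 and 3.64 CPM in UNX, 4.67, 3.65 and 3.12 in CO-CM and 3.58, 3.85 and 3.36 in PH-CM and was not called in any comparison, and Cd34, Flt3 and Gata2 were below the filter. The part of the macrophage, fibroblast and progenitor markers in the results below was not tested.

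The mitosis genes fell together in BMDMs treated with either medium, and lay lower in PH-CM than in CO-CM. In UNX they took 0.654%, 0.598% and 0.585% of all counted reads, in CO-CM 0.114%, 0.121% and 0.134%, and in PH-CM 0.0985%, 0.0915% and 0.0911%. The 3 groups did not overlap in this share, which rests on between 58087 and 493273 reads per library. The summed level of the members was 5952 ± 269 CPM (SD, n = 3) in UNX, 1257 ± 121 in CO-CM and 948 ± 28.4 in PH-CM. Without Mki67 and Top2a, which had the most reads, the order stayed the same, with 4510 ± 156 CPM in UNX, 1009 ± 104 in CO-CM and 782 ± 16.2 in PH-CM.

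**Figure D1:**
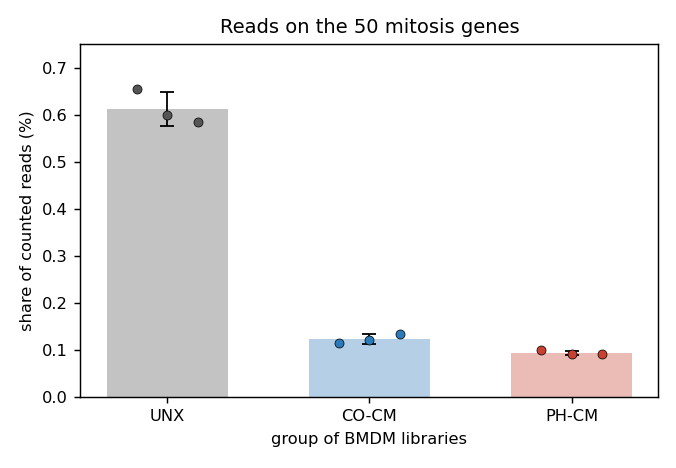
Share of counted reads (%, vertical axis) that fell on the 50 mitosis genes in the UNX, CO-CM and PH-CM libraries. Points are libraries, bars the group mean and whiskers the SD (n = 3). The UNX libraries lie between 0.585% and 0.654%, the CO-CM libraries between 0.114% and 0.134% and the PH-CM libraries between 0.0911% and 0.0985%.

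Against UNX, 49 of the 50 members (98.0%) were lower in CO-CM, where 28.9% of all genes tested were called lower and 28.0% higher, and Pttg1 was not called. In PH-CM 48 members (96.0%) were lower than in UNX, against 31.7% of all genes, and Cenpa was higher, against 31.3% of all genes. The median log2 fold change over the members was -2.37 for CO-CM and -2.92 for PH-CM, beside 0.0002 and 0.007 over all genes tested, and the median decrease of the members called lower was 5.21-fold in CO-CM and 7.70-fold in PH-CM. At least 4-fold decreases were found for 43 members in CO-CM and 47 in PH-CM, and at least 8-fold decreases for 1 and 23 members, respectively. All genes were not counted at these 2 cutoffs. At a fold threshold of 2, 938 of the 11950 genes tested were called lower in CO-CM and 1171 in PH-CM, beside 48 members in each. The decreases ran from -0.60 (Cenpa) to -3.40 (Mybl2) in CO-CM and from -1.38 (Smc4) to -4.25 (Cenpm) in PH-CM. Adjusted p-values were at most 1.64e-07 for the 48 members lower in PH-CM, and at most 2.57e-06 for those lower in CO-CM other than Cenpa. Both comparisons use the same UNX libraries.

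Between the media, 43 members (86.0%) were lower in PH-CM than in CO-CM, against 15.0% of all genes tested, and Cenpa was higher, against 12.2% of all genes. Aurka, Incenp, Espl1, Smc4, Ncaph and Pttg1 were not called. These differences were smaller than those from UNX, with a median of -0.66 over the members and -0.006 over all genes, and 3 of the members called lower fell at least 2-fold, namely Ccna2, Cenpm and Spc24. The median by role ran from -0.32 for the APC/C pathway to -0.98 for the outer kinetochore. The UNX libraries lay above all 6 libraries of treated BMDMs for every member but Pttg1 and Cenpa, while the PH-CM libraries lay below all CO-CM libraries for 41 members. The share of all genes tested whose libraries separate in this way was not counted, so no background stands beside these counts.

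**Figure D2:**
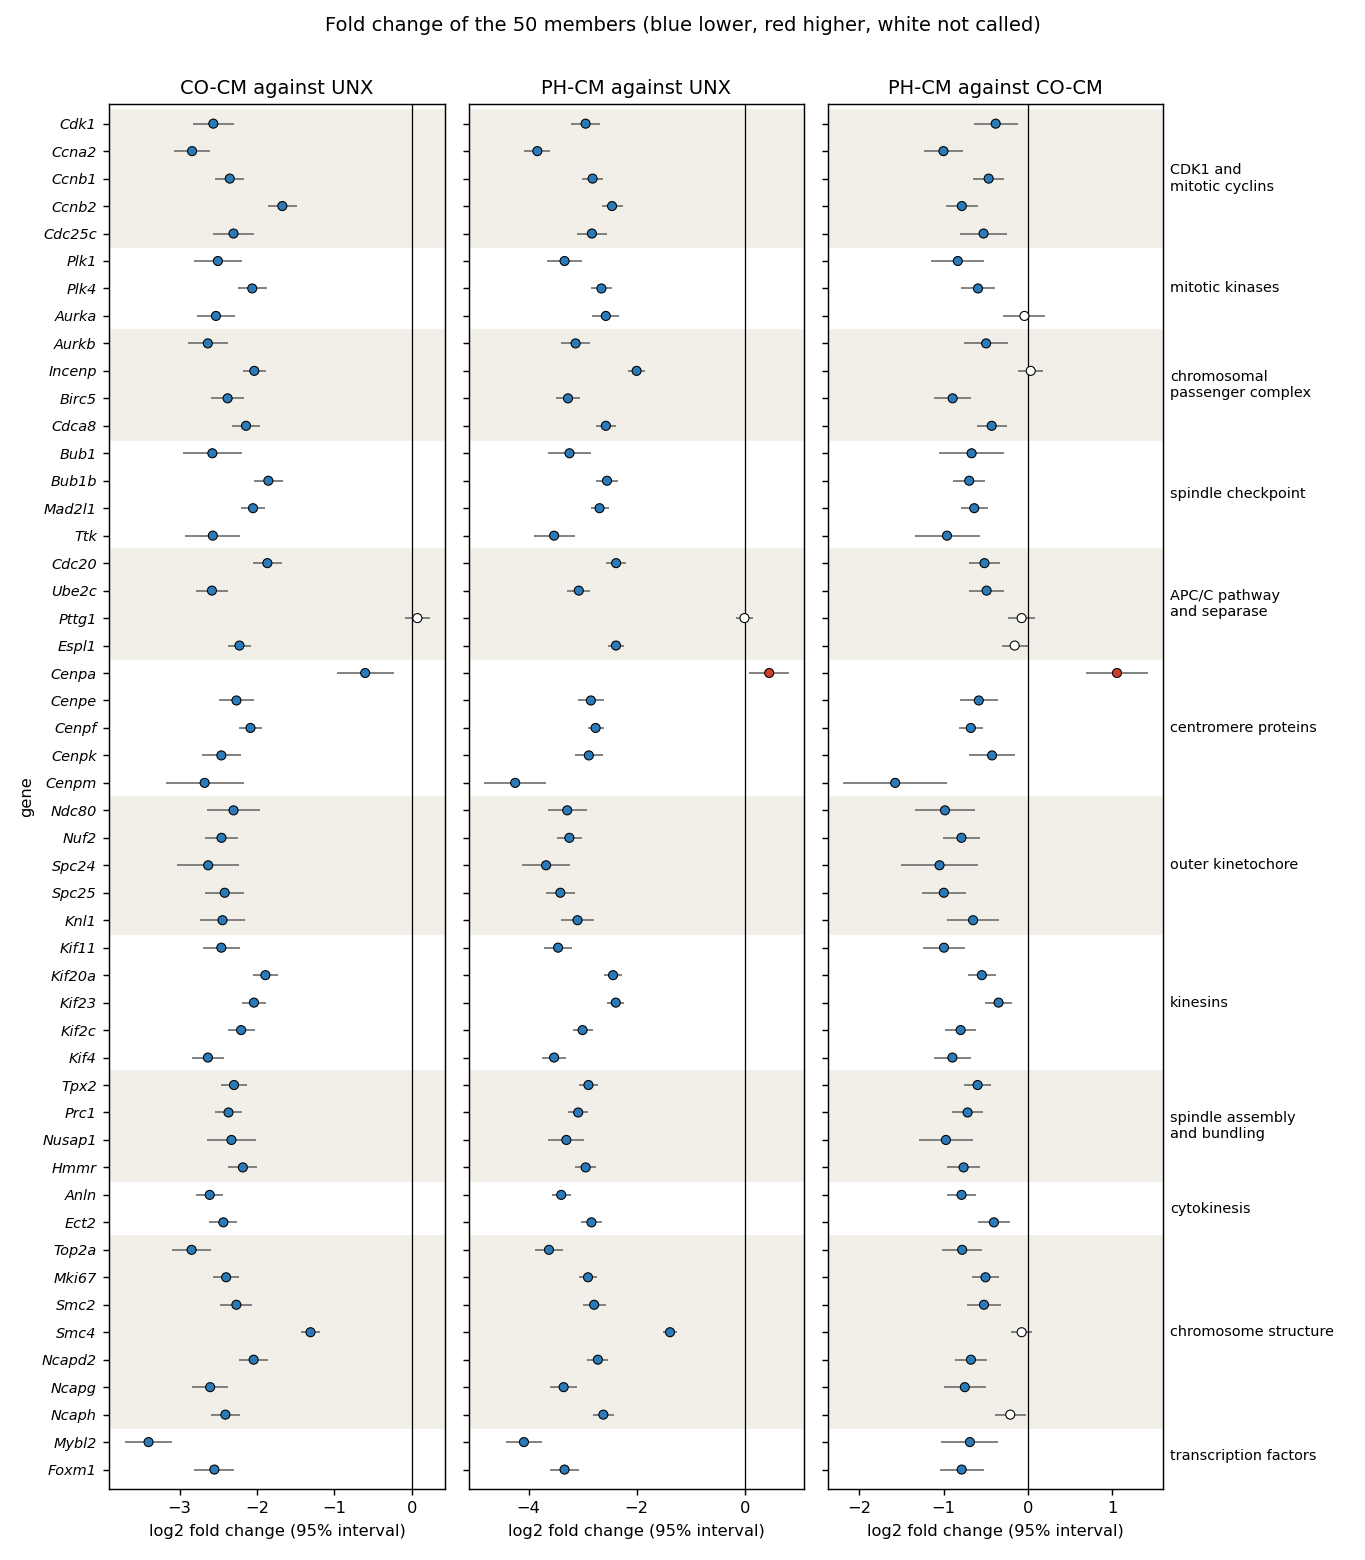
Log2 fold change (horizontal axis, with the 95% interval) of each of the 50 members, by role, for CO-CM against UNX, PH-CM against UNX and PH-CM against CO-CM. Blue points were called lower, red points higher and white points not called. Against UNX nearly all points lie between -1.3 and -4.3, Pttg1 lies near 0, and Cenpa is blue at -0.60 for CO-CM and red for PH-CM; between the media most points lie between 0 and -1.

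Many late cell cycle genes carry short shared words in their promoters, and since the members moved together their promoters were searched for them. The words were TTTGAA, the core of the cell cycle homology region that the MuvB complex binds, CCAAT, the box bound by NF-Y, and an E2F-type word (TTTCCCGC, TTTGGCGC, TTTCGCGC or TTTGCCGC), on both strands, in windows of 250 bases before to 50 bases after the start (RefSeq, GRCm38.p6). The table held 45 promoters of 41 members, while Spc24, Ccna2, Cdc25c, Tpx2, Smc4, Kif20a, Aurkb, Incenp and Foxm1 had no entry. TTTGAA stood in 66.7% of the members' promoters and 17.9% of all 32851, CCAAT in 73.3% and 37.4%, at least 2 CCAAT boxes in 46.7% and 11.7%, and both words in 57.8% and 6.95%. An E2F-type word stood in 8.89% and 2.26%. Of the 38 TTTGAA matches in members 50.0% began after the start, against 11.2% in all promoters, whereas 67.1% of the 73 CCAAT matches began within the 120 bases before it, against 50.7%. The median GC content was 59.0% in the members and 52.7% in all promoters, and words overlapped each other in 1 member promoter. No test was made of these shares.

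The 120 bases before the start are shown for Cdk1, Ccnb2, Cdc20 and Top2a, which fell in both media and differ in the words these bases hold. They are also shown for Pttg1, which was called in no comparison. Capitals mark matches to a word or its reverse complement (TTCAAA for the former, and ATTGG for the box). The stretches are, in this order, chr10:69352913-69353032 on the minus strand, chr9:70421555-70421674 on the minus strand, chr4:118437344-118437463 on the minus strand, chr11:99024190-99024309 on the minus strand and chr11:43425982-43426101 on the minus strand.
Cdk1: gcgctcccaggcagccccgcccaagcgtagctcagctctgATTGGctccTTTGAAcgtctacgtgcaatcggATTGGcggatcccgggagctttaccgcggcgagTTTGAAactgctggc
Ccnb2: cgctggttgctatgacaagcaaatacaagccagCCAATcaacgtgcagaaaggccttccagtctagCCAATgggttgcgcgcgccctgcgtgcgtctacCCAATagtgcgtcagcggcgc
Cdc20: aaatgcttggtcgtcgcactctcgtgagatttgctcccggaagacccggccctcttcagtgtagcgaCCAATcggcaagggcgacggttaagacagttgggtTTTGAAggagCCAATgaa
Top2a: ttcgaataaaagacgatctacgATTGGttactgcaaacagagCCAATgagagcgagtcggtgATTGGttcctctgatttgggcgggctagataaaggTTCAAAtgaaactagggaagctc
Pttg1: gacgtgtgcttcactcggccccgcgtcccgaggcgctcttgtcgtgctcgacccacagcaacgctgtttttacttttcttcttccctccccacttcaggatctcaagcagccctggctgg

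In these stretches Cdk1 held 2 TTTGAA and 2 CCAAT matches, Ccnb2 3 CCAAT, Cdc20 1 TTTGAA and 2 CCAAT, and Top2a 1 TTTGAA and 3 CCAAT. Outside its stretch, the window of Ccnb2 also held TTTGAA, at -167 and 5 bases from the start. Pttg1 held none of the words in its whole window. Its stretch lies within the first exon of a noncoding transcript in GENCODE that starts further upstream. Nuf2, Nusap1, Ncaph, Mybl2, Plk4, Mad2l1 and Birc5 held none of the words in their whole windows either. Each of them was called lower than UNX in both media. Cenpa, whose level rose in PH-CM, held 2 CCAAT matches in the 120 bases before its RefSeq start and 1 TTTGAA after it, and most of these 120 bases lie in the first exon of a coding transcript in GENCODE that starts further upstream. The median log2 fold change from UNX to PH-CM was -2.87 in the 24 members with TTTGAA and CCAAT and -3.10 in the 17 members without the pair of words, and between the media the medians were -0.68 and -0.67.

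**Figure D3:**
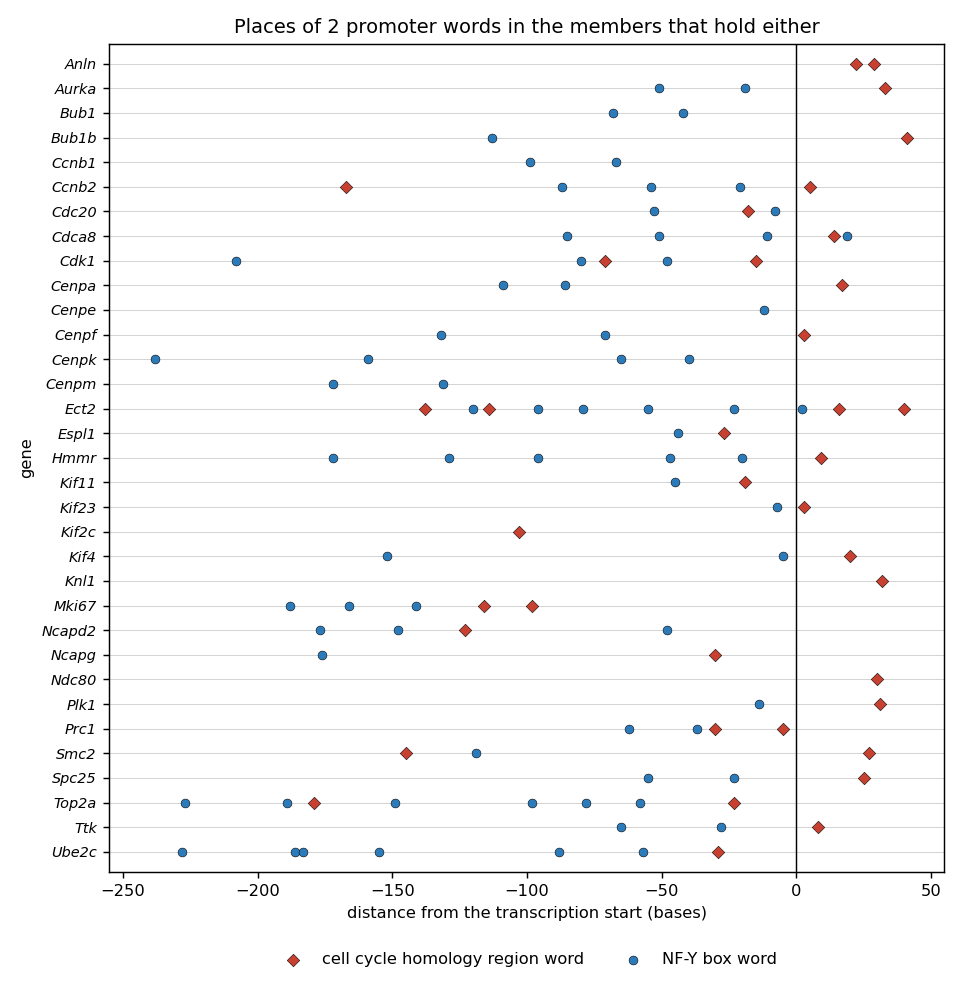
Places of the 2 words most frequent in members (red diamonds for the cell cycle homology region, blue circles for the box bound by NF-Y), as distance of the first base of the match from the transcription start in bases, for each member that holds either. The circles gather before the start and many diamonds lie just after it; Ect2, Prc1 and Cenpk have several promoter entries drawn on the same line.

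CDK1 and the mitotic cyclins, which drive the entry into mitosis, fell in both media and were lower in PH-CM than in CO-CM, all 5 of 5. Cdk1, the kinase itself, stood at 127, 122 and 123 CPM in UNX, 17.0, 20.4 and 25.5 in CO-CM and 16.0, 15.3 and 17.1 in PH-CM. The treated BMDMs kept 16.9% of the untreated level in CO-CM and 13.0% in PH-CM, and the CO-CM and PH-CM libraries overlapped. The difference between the media was called at -0.38 ± 0.12 (adjusted p = 0.0264), but the call was lost when CO-CM replicate 3 was left out (-0.22, adjusted p = 0.0694), and likewise for PH-CM replicate 1 (-0.37, 0.0761) and for replicate 2 of that group (-0.34, 0.0915). Ccnb2, a B-type cyclin, stood at 76.9, 81.0 and 77.6 CPM in UNX, 21.4, 24.3 and 28.1 in CO-CM and 14.1, 14.9 and 13.9 in PH-CM, with 3 separate groups and -0.78 ± 0.09 between the media (adjusted p = 6.71e-05). Ccna2, cyclin A, fell further, from 188, 171 and 171 CPM in UNX to 22.5, 26.0 and 25.5 in CO-CM and 14.1, 12.5 and 10.4 in PH-CM. Its log2 fold change was -2.84 ± 0.10 in CO-CM and -3.84 ± 0.11 in PH-CM against UNX, and -1.001 ± 0.10 between the media (adjusted p = 4.05e-05), the largest difference between the media in this role. Ccna2 shares 510 exon bases with Exosc9 on the opposite strand, and the counting is described without strand, so reads on these bases cannot be given to either gene. Ccnb1 (-2.82 in PH-CM against UNX) and Cdc25c, a phosphatase that activates CDK1 (-2.83, on 623 bases shared with Gm3550), followed the same order of groups.

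Among the mitotic kinases, Plk1 and Plk4 were lower in PH-CM than in CO-CM, and Aurka was not called between them. Plk1, polo-like kinase, which shares 156 exon bases with Gm44985, stood at 108, 103 and 99.3 CPM in UNX, 13.9, 18.2 and 22.4 in CO-CM and 10.9, 9.56 and 10.2 in PH-CM. All 3 groups were apart, with -2.51 ± 0.14 in CO-CM and -3.34 ± 0.15 in PH-CM against UNX, and -0.83 ± 0.14 between the media (adjusted p = 0.00110). Aurka, the Aurora kinase of the spindle poles, stood at 62.9, 60.2 and 63.9 CPM in UNX, 9.39, 9.73 and 13.2 in CO-CM and 10.6, 10.3 and 10.5 in PH-CM. Its levels in the 2 media overlapped, and the difference of -0.04 ± 0.11 had a 95% interval of -0.29 to 0.21 (adjusted p = 0.804). Against UNX it fell in both media, by 2.53 in CO-CM and by 2.57 in PH-CM on the log2 scale. Plk4, the kinase of centriole duplication, was at -0.59 ± 0.09 between the media.

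The chromosomal passenger complex corrects wrong attachments at the centromere and later works in cytokinesis, and all 4 of its members fell in both media. Incenp, its scaffold, had the highest mean RPKM of all members over the 9 libraries (45.5), with 308, 277 and 285 CPM in UNX, 63.9, 73.0 and 75.1 in CO-CM and 75.1, 72.4 and 69.6 in PH-CM. The treated BMDMs kept 24.4% and 25.0% of the untreated level, and the media overlapped, at 0.03 ± 0.07 (95% interval -0.11 to 0.18, adjusted p = 0.725). Its kinase subunit Aurkb stood at 85.1, 84.8 and 82.3 CPM in UNX, 11.2, 13.3 and 16.1 in CO-CM and 10.6, 9.14 and 9.01 in PH-CM. Here the groups were apart, with -0.50 ± 0.12 between the media (adjusted p = 0.00717). Birc5, survivin, fell most of the complex in PH-CM (-3.27 against UNX and -0.89 against CO-CM). Cdca8, borealin, was at -2.57 and -0.43, on a gene that shares 232 exon bases with 9930104L06Rik. The complex thus changed unequally between the media, from -0.89 for Birc5 to 0.03 for Incenp.

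All 4 spindle checkpoint genes fell in both media and were lower in PH-CM than in CO-CM. Bub1b stood at 106, 105 and 100.1 CPM in UNX, 24.6, 29.8 and 31.6 in CO-CM and 16.5, 18.5 and 18.2 in PH-CM. Its groups did not overlap, with -1.85 ± 0.09, -2.55 ± 0.09 and -0.70 ± 0.09 for CO-CM against UNX, PH-CM against UNX and PH-CM against CO-CM. Bub1, a kinase of the checkpoint, stood at 81.1, 84.4 and 79.2 CPM in UNX, 9.26, 16.1 and 15.6 in CO-CM and 7.75, 9.50 and 8.58 in PH-CM. The lowest CO-CM library lay within the PH-CM range, and the difference of -0.67 ± 0.17 between the media (adjusted p = 0.0124) was not called without CO-CM replicate 3 (-0.56, 0.0531) or PH-CM replicate 1 (-0.59, 0.0518). Mad2l1, which binds and holds Cdc20, was at -0.64 ± 0.07 between the media, and Ttk, the kinase at the head of the checkpoint, at -0.96 ± 0.17.

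**Figure D4:**
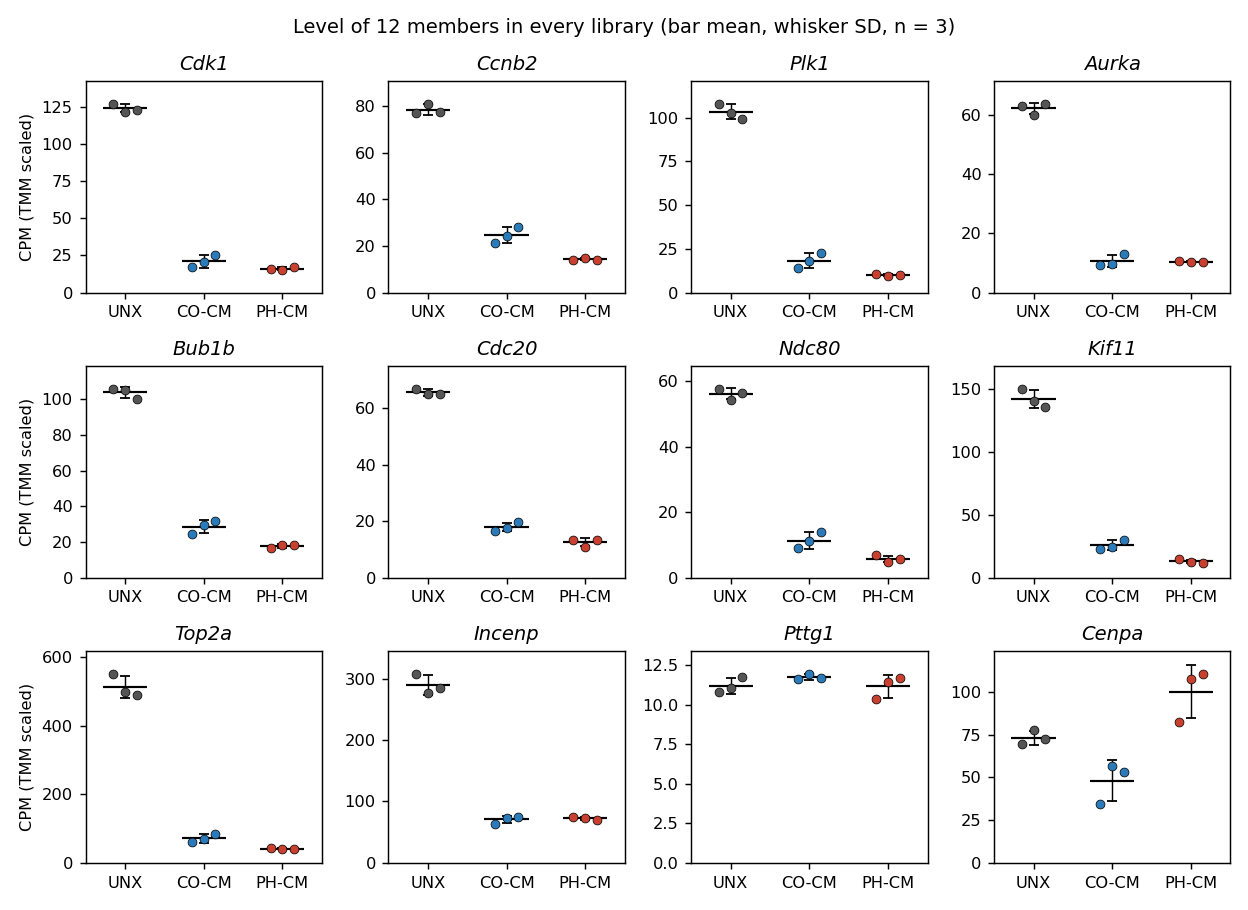
Level (CPM after TMM scaling, vertical axis from 0) of 12 members in every library of UNX, CO-CM and PH-CM. Points are libraries, bars the mean and whiskers the SD (n = 3). From Cdk1 to Incenp the UNX libraries lie far above the treated ones, the CO-CM and PH-CM libraries of Aurka and Incenp overlap, Pttg1 is near 11 CPM in each library and Cenpa is highest in PH-CM.

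The APC/C pathway was split, since its activator, its conjugating enzyme and separase fell while securin was not called in any comparison. Ube2c, the ubiquitin-conjugating enzyme of the APC/C, stood at 119, 116 and 113 CPM in UNX, 16.8, 19.1 and 22.2 in CO-CM and 13.8, 12.8 and 14.8 in PH-CM. Cdc20, the activator that the checkpoint holds, stood at 66.9, 64.9 and 65.0 CPM in UNX, 16.6, 17.6 and 19.7 in CO-CM and 13.3, 11.0 and 13.4 in PH-CM. In each of the pair all 3 groups were apart, with -0.49 ± 0.09 for Ube2c and -0.51 ± 0.09 for Cdc20 between the media (adjusted p = 0.00205 and 9.34e-04). Ube2c shares 592 exon bases with Tnnc2, which had 1 read in all libraries, and Cdc20 shares 53 with Elovl1, which had 108831. Espl1, separase, the protease that opens cohesin, stood at 81.5, 73.3 and 73.6 CPM in UNX, 15.4, 16.4 and 17.0 in CO-CM and 15.5, 13.6 and 14.6 in PH-CM. It kept 21.4% of its untreated level in CO-CM and 19.2% in PH-CM, and the media overlapped, at -0.16 ± 0.07 (95% interval -0.31 to -0.0019, adjusted p = 0.103).

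Pttg1, securin, which inhibits separase until anaphase, stood at 10.8, 11.0 and 11.7 CPM in UNX, 11.6, 11.9 and 11.7 in CO-CM and 10.3, 11.4 and 11.7 in PH-CM. All 9 libraries thus lay between 10.3 and 11.9 CPM, on 2537, 2421 and 2143 reads per group. The log2 fold change was 0.07 ± 0.07 in CO-CM against UNX (95% interval -0.09 to 0.23, adjusted p = 0.397), -0.0039 ± 0.07 in PH-CM against UNX (-0.16 to 0.15, 0.963) and -0.07 ± 0.07 between the media (-0.23 to 0.08, 0.448). Its target Espl1 moved from -2.23 to -2.38 against UNX in the same libraries. No annotated gene shares exon bases with Pttg1.

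Centromere proteins mark the place where the kinetochore is built, and 4 of the 5 members fell in both media and were lower in PH-CM. Cenpe, a kinesin at the kinetochore, stood at 141, 122 and 127 CPM in UNX, 26.6, 26.3 and 28.2 in CO-CM and 20.9, 18.1 and 15.1 in PH-CM, with -0.58 ± 0.10 between the media. Cenpm, of the inner kinetochore network, stood at 12.6, 11.4 and 12.1 CPM in UNX, 1.62, 1.32 and 2.70 in CO-CM and 0.788, 0.467 and 0.633 in PH-CM. This was the largest decrease of all members in PH-CM (-4.25 ± 0.26 against UNX, 5.25% of the untreated level) and the largest difference between the media (-1.57 ± 0.28, adjusted p = 0.00135). Its levels were low, and its CO-CM libraries had the highest coefficient of variation of the members (38.6%). Cenpf was at -0.68 and Cenpk at -0.42 between the media. The call for Cenpk (adjusted p = 0.0204) was lost when replicate 1 (0.0510) or 3 (0.0696) of CO-CM or replicate 1 (0.0544) or 3 (0.0632) of PH-CM was left out, and with a replicate block in a fit of the 2 groups alone (0.0529), and the gene shares 233 exon bases with Ppwd1.

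Cenpa, the histone variant that defines the centromere, went against the rest. It stood at 69.3, 77.5 and 72.7 CPM in UNX, 34.6, 56.8 and 53.1 in CO-CM and 82.6, 108 and 111 in PH-CM. The 3 groups did not overlap, with CO-CM lowest and PH-CM highest, and all PH-CM libraries lay above all UNX libraries. Cenpa fell in CO-CM (-0.60 ± 0.17 against UNX, adjusted p = 0.00784) and rose in PH-CM (0.45 ± 0.16, 95% interval 0.09 to 0.82, adjusted p = 0.0278). The difference between the media was 1.06 ± 0.17 (adjusted p = 6.93e-04), and it stayed between 0.87 and 1.19 and past the threshold under every alternative run and with each library left out in turn. The rise over UNX was smaller, and its call was lost when replicate 1 (0.41, adjusted p = 0.0774) or 3 (0.44, 0.0748) of UNX or replicate 2 (0.40, 0.0824) or 3 (0.38, 0.0928) of PH-CM was left out. No annotated gene shares exon bases with Cenpa.

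The outer kinetochore, whose NDC80 complex grips the microtubule end, had the largest median difference between the media of the 12 roles (-0.98), and 5 of 5 members fell in each comparison. Ndc80 stood at 57.6, 54.4 and 56.4 CPM in UNX, 8.98, 11.2 and 13.9 in CO-CM and 6.84, 4.75 and 5.63 in PH-CM. Spc25 stood at 56.8, 55.0 and 53.2 CPM in UNX, 8.85, 9.97 and 12.0 in CO-CM and 5.89, 4.67 and 4.89 in PH-CM. Nuf2 stood at 67.9, 67.1 and 65.6 CPM in UNX, 11.1, 10.9 and 14.4 in CO-CM and 7.36, 7.02 and 6.74 in PH-CM. In all 3 genes the groups were apart, and PH-CM kept between 9.38% (Spc25) and 10.5% (Nuf2) of the untreated level, against 18.2% to 20.3% in CO-CM. Between the media they differed by -0.98 ± 0.16, -0.996 ± 0.12 and -0.79 ± 0.10 (adjusted p = 8.24e-04, 1.12e-04 and 1.71e-04 for Ndc80, Spc25 and Nuf2). Spc24, the fourth subunit of the complex, was at -1.05 ± 0.20, with the widest spread of any member in PH-CM (coefficient of variation 26.7%). Knl1, the scaffold that recruits Bub1 and Bub1b, was at -0.65 ± 0.14. The 4 subunits of NDC80 moved by similar amounts against UNX, from -3.25 to -3.68 in PH-CM and from -2.30 to -2.63 in CO-CM.

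The 5 kinesins, motors that walk on or take apart microtubules, fell in each comparison, with a median of -0.80 between the media. Kif11, which slides spindle microtubules apart, stood at 150.0, 141 and 135 CPM in UNX, 22.7, 24.3 and 30.3 in CO-CM and 14.5, 12.3 and 12.0 in PH-CM. Kif20a, a motor of the central spindle, stood at 77.6, 74.0 and 73.1 CPM in UNX, 18.9, 19.7 and 22.0 in CO-CM and 14.9, 12.8 and 13.8 in PH-CM. Kif23, of the centralspindlin complex, stood at 139.9, 150.3 and 145 CPM in UNX, 31.1, 37.2 and 37.5 in CO-CM and 27.2, 28.2 and 27.7 in PH-CM. The groups were apart for each, but the sizes differed, from -0.99 ± 0.11 for Kif11 (adjusted p = 6.75e-05) and -0.55 ± 0.07 for Kif20a (2.40e-04) to -0.35 ± 0.07 for Kif23 (0.00294), the smallest difference between the media of any member called. Kif20a shares 1271 exon bases with Cdc23 and Kif4 shares 832 with Pdzd11, both on the opposite strand. Kif2c, a microtubule depolymerase, and the chromokinesin Kif4 were at -0.80 and -0.89 between the media.

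Spindle assembly and bundling genes (4 of 4) and cytokinesis genes (2 of 2) also fell in each comparison. Tpx2, which activates Aurora kinase A on the spindle, stood at 178, 169 and 170.1 CPM in UNX, 30.7, 35.5 and 38.9 in CO-CM and 23.6, 23.1 and 22.8 in PH-CM. Nusap1, a microtubule bundler, stood at 92.5, 95.7 and 88.9 CPM in UNX, 15.2, 18.6 and 21.3 in CO-CM and 11.2, 7.45 and 9.39 in PH-CM. In both the groups were apart, with -0.60 ± 0.07 and -0.97 ± 0.15 between the media, and Nusap1 shares 172 exon bases with Oip5. Prc1, which crosslinks the central spindle and shares 911 exon bases with Rccd1, was at -0.71 and Hmmr at -0.76. Anln, anillin of the cleavage furrow, stood at 182, 169 and 165 CPM in UNX, 25.6, 28.6 and 30.2 in CO-CM and 17.6, 15.1 and 16.2 in PH-CM. Ect2, the exchange factor that turns on RhoA there, stood at 71.0, 66.3 and 62.9 CPM in UNX, 11.6, 12.0 and 13.5 in CO-CM and 10.2, 8.87 and 8.90 in PH-CM. Again no library of one group reached another, and the media differed by -0.79 ± 0.08 for Anln (adjusted p = 2.91e-05) and -0.40 ± 0.08 for Ect2 (0.00351).

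Genes of chromosome structure held the members with the most reads. Mki67, the Ki-67 protein that coats mitotic chromosomes and serves as a marker of dividing cells, stood at 1018, 904 and 865 CPM in UNX, 173, 174 and 182 in CO-CM and 135, 121 and 116 in PH-CM. Top2a, the topoisomerase that untangles sister chromatids, stood at 551, 498 and 490.0 CPM in UNX, 60.1, 69.6 and 84.5 in CO-CM and 44.5, 40.2 and 40.1 in PH-CM. Both had separate groups, keeping 19.0% and 13.9% of the untreated level in CO-CM and 13.4% and 8.11% in PH-CM, and differing between the media by -0.50 ± 0.07 and -0.78 ± 0.11 (adjusted p = 3.92e-04 and 2.93e-04). Per length, Mki67 was the highest member in UNX (95.02 RPKM), whereas Incenp was highest in CO-CM (21.5 RPKM) and PH-CM (22.2 RPKM).

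The condensin subunits, which compact chromosomes, fell against UNX by unequal amounts. Smc4 stood at 258, 246 and 239 CPM in UNX, 98.4, 101 and 100.2 in CO-CM and 99.0, 98.6 and 87.5 in PH-CM. It kept 40.3% of the untreated level in CO-CM and 38.3% in PH-CM, the smallest decrease in PH-CM of the members called lower, and the media overlapped, at -0.07 ± 0.05 (95% interval -0.20 to 0.05, adjusted p = 0.320). Its partner Smc2 kept 20.8% and 14.5% and was at -0.52 ± 0.09 between the media. Ncaph stood at 92.3, 88.4 and 89.8 CPM in UNX, 14.7, 16.8 and 19.4 in CO-CM and 14.8, 14.6 and 14.7 in PH-CM. The lowest CO-CM library lay within the PH-CM range, and the difference of -0.21 ± 0.08 (95% interval -0.40 to -0.02) was not called (adjusted p = 0.0745), but was called without CO-CM replicate 1 (-0.30, 0.00571). Ncapd2 and Ncapg were lower in PH-CM than in CO-CM (-0.67 and -0.75), and Ncapg shares 944 exon bases with Lcorl.

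The pair of transcription factors fell further than the median member in each comparison. Mybl2 (B-Myb), which joins the MuvB complex, stood at 47.1, 41.9 and 43.7 CPM in UNX, 3.63, 3.62 and 5.29 in CO-CM and 2.86, 2.29 and 2.64 in PH-CM. It kept 9.47% of the untreated level in CO-CM, the lowest share of any member there, and 5.88% in PH-CM. Foxm1, which follows on the same promoters and shares 144 exon bases with Tex52, stood at 135, 124 and 120.5 CPM in UNX, 18.9, 19.9 and 26.0 in CO-CM and 13.6, 11.2 and 12.7 in PH-CM. The groups were apart for both, with -0.69 ± 0.15 and -0.78 ± 0.12 between the media (adjusted p = 0.00521 and 5.05e-04).

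Libraries of one group kept their order over most members. In CO-CM, replicate 1 held the lowest level of 39 of the 50 members and replicate 3 the highest level of 45, and the median coefficient of variation was 12.6%, against 4.23% in UNX and 7.85% in PH-CM. In UNX replicate 1 held the highest level of 40 members and in PH-CM replicate 1 that of 35. Compared within one replicate number, 44, 48 and 48 members were lower in PH-CM than in CO-CM for replicates 1, 2 and 3, with median log2 ratios of -0.38, -0.66 and -0.85. Against UNX these medians were -2.60, -2.37 and -2.16 in CO-CM and -2.99, -2.90 and -2.90 in PH-CM. Neither the order of the libraries nor these ratios were counted over all genes, so no background stands beside them. Without CO-CM replicate 3 the members called lower in PH-CM than in CO-CM numbered 40, with a median of -0.56, and without CO-CM replicate 1 they numbered 43, with a median of -0.69.

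**Figure D5:**
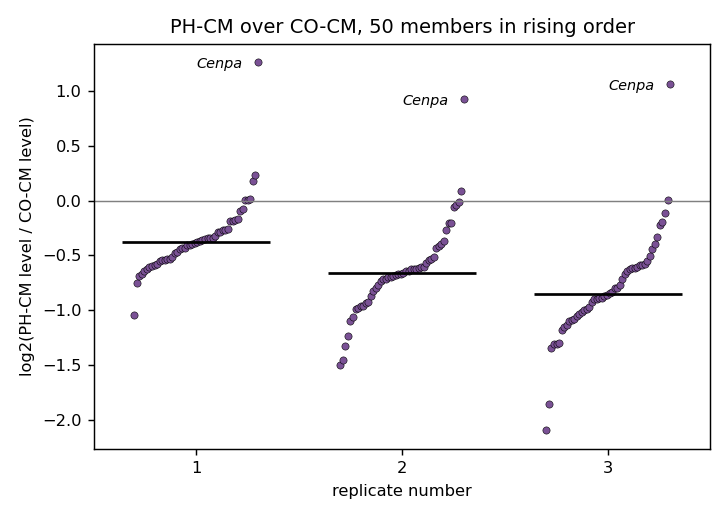
Log2 ratio of the PH-CM to the CO-CM level (vertical axis) of the 50 members, in rising order, within replicate numbers 1, 2 and 3. Points are members and lines the median, at -0.38, -0.66 and -0.85; 44, 48 and 48 points lie below 0 and Cenpa is the highest point each time.

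Genes of the same processes outside the members were counted by lists written with earlier results of these data known. Of all genes tested, 28.9% were lower and 28.0% higher in CO-CM than in UNX, 31.7% and 31.3% in PH-CM than in UNX, and 15.0% and 12.2% in PH-CM than in CO-CM. Of 27 other kinetochore proteins 27 were lower in each medium than in UNX (medians -2.03 in CO-CM and -2.21 in PH-CM), and 17 were lower and 1 higher in PH-CM than in CO-CM. The genes of this list with the highest mean RPKM, Spdl1 and Mis12, were at -1.49 and -0.53 in PH-CM against UNX, and Cenpu, an inner kinetochore protein, was the gene higher in PH-CM than in CO-CM (0.48 ± 0.09, adjusted p = 0.00178). Among 16 other genes of the spindle and cytokinesis 15 were lower in each medium, with medians of -2.14 and -2.78, and 12 were lower in PH-CM than in CO-CM. Of the highest in RPKM, the spindle pole protein Numa1 rose in PH-CM (0.44 against UNX) and Tacc3 fell (-2.48). Of 13 kinases, phosphatases and partners that set CDK1 activity 12 were lower and 1, Ensa, an inhibitor of the opposing phosphatase, was higher in each medium (0.36 in CO-CM and 0.72 in PH-CM), while Cdc25b was at -1.10 and -1.03. Between the media 6 of the 13 were lower and 1, Ensa, higher in PH-CM. Of 17 centrosome and spindle pole genes 15 were lower in CO-CM and 16 in PH-CM, Tubg1 (-1.65 in PH-CM) and Tubgcp2 (-1.29) among them, and Cep63 was higher in each (0.43 and 0.46). Between the media 7 of these 17 were lower in PH-CM.

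Further lists hold mainly machinery that also works outside mitosis. The APC/C list of 16 genes held its core subunits, its coactivator Fzr1 and the conjugating enzyme Ube2s. The core subunits were not counted apart. The list had medians of -0.09 in CO-CM and -0.31 in PH-CM against UNX, with 6 and 9 lower (28.9% and 31.7% of all genes). Between the media 2 were lower in PH-CM, a share near the 15.0% of all genes. Anapc2 was at 0.09 and Anapc5 at -0.83 in PH-CM, and Anapc13 (0.40, and 0.42 in CO-CM), Anapc16 (0.28) and Cdc26 (0.27) were higher there. These 3 higher subunits, against 31.3% of all genes, numbered 1 with library size alone as the scaling, with no filter, with edgeR's own filter, and without UNX replicate 2 or PH-CM replicate 3. Cohesin and its regulators had medians of -0.75 and -0.81, with 10 of 14 lower in each medium and 4 lower in PH-CM than in CO-CM (15.0% of all genes). This list also holds Cdca5, Esco2, Sgo1 and Sgo2a, which act within the cell cycle. Cdca5 lay at 2.30 to 2.48 RPKM in CO-CM and 1.44 to 1.78 in PH-CM. Esco2 lay at 0.405 to 0.636 and 0.178 to 0.272, Sgo1 at 0.791 to 1.03 and 0.514 to 0.663. For Sgo2a the ranges were 0.409 to 0.496 and 0.198 to 0.271. Ring subunit Smc1a lay at 19.2 to 20.6 and 18.5 to 19.7, and Rad21 at 33.7 to 34.0 and 30.1 to 33.4. Rad21 and Smc1a were at -1.07 and -0.68 in PH-CM against UNX. The cohesin loader Nipbl was higher in each (0.38 and 0.58), and Esco1, a cohesin acetyltransferase, in PH-CM (0.33). A list of subunits of MuvB and of DREAM, the repressor complex built on it, also held Mybl1, a MYB factor outside DREAM. The list had medians of -0.66 and -0.65, with 10 of 12 lower in each medium and 3 lower in PH-CM than in CO-CM. Tfdp1 and E2f4 were at -1.56 and -0.33 in PH-CM, and Rbl2, a pocket protein of DREAM, was higher there (0.37, adjusted p = 0.00249). Of 10 tubulins 8 were lower in CO-CM and 9 in PH-CM than in UNX, with medians of -1.17 and -1.41. Tubb5 was at -2.22 and Tuba1b at -2.24 in PH-CM, Tubb3 was higher in PH-CM than in UNX (0.65), and between the media 5 were lower and 3 (Tuba1c, Tuba4a and Tubb3) higher in PH-CM. Tubulins and other near-identical copies can share reads, so their single values are uncertain.

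The condensin II subunit Ncapg2 had the same order of groups as Cenpa. It stood at 112, 100.4 and 103 CPM in UNX, 71.2, 58.5 and 56.9 in CO-CM and 149, 152 and 147 in PH-CM. The groups did not overlap, with -0.76 ± 0.08 in CO-CM and 0.51 ± 0.08 in PH-CM against UNX (adjusted p = 1.24e-05 and 1.77e-04), and 1.26 ± 0.08 between the media (1.68e-06). Its partner Ncaph2 was lower than UNX in CO-CM (-0.68) and in PH-CM (-0.82). The 3 subunits listed for the complex (Ncapd3, Ncapg2 and Ncaph2) were all lower in CO-CM than in UNX, and in PH-CM 2 were lower and Ncapg2 higher.

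A list of brakes on the cyclin-dependent kinases or on proliferation moved in both directions. Of its 12 genes 5 were lower and 5 higher in CO-CM, and 5 lower and 4 higher in PH-CM, than in UNX. Between the media 4 were lower and 3 higher in PH-CM, and the background is 28.9% lower and 28.0% higher in CO-CM, 31.7% and 31.3% in PH-CM, and 15.0% and 12.2% between the media. Cdkn1b, the inhibitor p27, stood at 31.1, 36.6 and 31.1 CPM in UNX, 60.7, 85.9 and 64.6 in CO-CM and 71.4, 83.9 and 70.8 in PH-CM. It rose in both media (1.09 ± 0.13 and 1.19 ± 0.13), and was not called between them (0.10 ± 0.13, adjusted p = 0.573). Btg1, an antiproliferative gene, stood at 101, 139.8 and 126 CPM in UNX, 196, 269.9 and 221 in CO-CM and 498, 604 and 542 in PH-CM. It rose in CO-CM (0.91 ± 0.14) and further in PH-CM (2.17 ± 0.14), with 1.26 ± 0.14 between the media (adjusted p = 6.35e-05). Btg2 and Ccng2 were also higher in both (2.01 and 1.15 in PH-CM). Cdkn1c, the inhibitor p57, was higher than UNX in CO-CM (1.70) and at -0.58 in PH-CM (adjusted p = 0.0780), with -2.28 ± 0.26 between the media (adjusted p = 8.67e-05). Cdkn1a, the inhibitor p21, fell in both media (-1.26 and -0.67) and was higher in PH-CM than in CO-CM (0.59 ± 0.09, adjusted p = 4.98e-04). The other brakes lower in both media were the INK4 inhibitors Cdkn2a, Cdkn2b, Cdkn2c and Cdkn2d, named here after their values were seen. They were at -1.56, -2.25, -1.97 and -1.50 in CO-CM and -2.20, -2.90, -2.43 and -1.39 in PH-CM against UNX. Between the media Cdkn2a, Cdkn2b and Cdkn2c were lower in PH-CM (-0.64, -0.65 and -0.46), and Cdkn2d was at 0.11 (adjusted p = 0.330).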

How the data were processed

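RNA of 9 BMDM cultures was sequenced as paired reads from poly(A) libraries. As the study describes it, reads were aligned with STAR to GRCm38 with Ensembl annotation and counted per gene with featureCounts 1.6.2, without strand or pair options being stated, and the authors deposited the raw counts and the RPKM values they computed with edgeR 3.14 in R 3.4.3. Of the counts under 20, between 81.4% and 83.8% were even in each library, so each mate was probably counted on its own. Further tables hold the authors' own comparisons and were not used.

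The raw counts of 53465 genes were fitted in edgeR 4.0.16 (R 4.3.3, limma 3.58.1) with TMM factors, 1 mean per group and all 9 libraries, after a filter of CPM above 1 in at least 3 libraries. The quasi-likelihood test was used, with p-values adjusted after Benjamini and Hochberg over 11950 genes. A gene was called where this p did not exceed 0.05 and the levels differed 1.2-fold or more. The exact permutation test of 3 against 3 libraries cannot go below p = 0.1 and was not used. Groups and replicate numbers come from the labels. Same-numbered libraries deviated together from their group means (r from 0.276 to 0.484 in 9 pairs, against -0.376 to 0.0423 for other numbers), so the numbers pair the libraries. The SEs, intervals and p-values given come from fits without this pairing, unless a replicate block is named. No pair of libraries was a duplicate, with a chi-square per gene of at least 8.21.

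One marker gene is not reported here. The members, roles, lists and tests were chosen with earlier results of these data known. Per-library values are given in each role for the 2 members (3 in roles of 5 or more) with the highest mean RPKM, and for members called in no or the opposite direction. Genes of the other lists are named for the 2 highest in RPKM and for those called against most of their list. Some are also named where the make-up of a list is described. Sequence overlaps with other genes come from GENCODE M21 and promoters from RefSeq, both on GRCm38. On simulated counts the fit recovered 92% to 95% of genes changed by 1 log2 unit and 100% of those changed by 2. It also called 7 to 14 unchanged genes per comparison. The simulation changed 200 genes per comparison, equally up and down, and held no pairing of replicates, unlike these data. Alternatives were other tests (edgeR's exact test, DESeq2 1.42.0), scalings, filters, thresholds, a replicate block, halved counts and each library left out.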

Additional observations from a re-analysis of the deposited data

How the results depend on the processing

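Over all alternatives the 50 members gave 3235 values with the direction and side of the threshold as reported, 58 that lost their call, 1 that gained it and 6 that changed sign. Members lower than UNX numbered 48 in PH-CM and 49 in CO-CM with a replicate block, and 43 were lower in PH-CM than in CO-CM (42 with the replicate block in a fit of the 2 groups alone, 41 in that fit without it), so the paired fit lost only the call of Cenpk. With a fold threshold of 2, the members lower in PH-CM than in CO-CM numbered 3 and those higher in PH-CM than in UNX 0, since Cenpa was at 0.45. Leaving out each library in turn gave 0 to 1 members higher in PH-CM than in UNX by edgeR's quasi-likelihood test (Cenpa at an adjusted p of 0.0748 to 0.0928 where it was not called), and between 40 and 43 lower in PH-CM than in CO-CM. In the fit of 2 groups alone Cdk1 (adjusted p = 0.0530) and Cenpk (0.0641) were not called between the media. Changes of sign were found for members that were not called in that comparison. The change of Pttg1, PH-CM against UNX, was at 0.0247 with upper-quartile factors and between -0.0394 and 0.0497 (at 0.0213 without UNX replicate 3) with single libraries left out. Between the media Aurka was between -0.131 and 0.133 with single libraries left out (highest without CO-CM replicate 3), and Incenp between -0.034 (without CO-CM replicate 1) and 0.0793, and at -0.00397 with upper-quartile factors. The cause of these changes was not tested. With a fold threshold of 2, genes called lower over the whole table fell from 3788 to 1171 in PH-CM against UNX, from 3455 to 938 in CO-CM against UNX and from 1787 to 276 between the media. No scaling moved the median of all genes by more than 0.070. The members with the fewest reads over the 9 libraries were Cenpk (2914) and Cenpm (3237), and the calls of all members were kept with halved counts.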
